A study of Mus musculus with 8 samples.

Results

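The genes described here encode the phase II conjugating enzymes, which attach a polar group to drugs, dietary compounds, bile pigments, steroids and reactive lipids. They were taken by symbol: every gene of the glucuronosyltransferase (Ugt), glutathione transferase (Gsta, Gstk, Gstm, Gsto, Gstp, Gstt, Gstz and Mgst) and sulfotransferase (Sult) families followed by a number, without pseudogenes. This gave 68 of the 53379 genes listed, of which 22 were Ugt, 22 were soluble Gst, 3 were membrane-bound Mgst and 21 were Sult genes. RNA was sequenced from epithelial cells shaken off the distal colon of C57BL/6 mice. The 8 libraries form 4 groups of 2, which are RORaΔIEC with DSS, RORaf/f with DSS, RORaΔIEC untreated and RORaf/f untreated. RORaf/f marks floxed alleles of Rora, a nuclear receptor gene, and RORaΔIEC its deletion in intestinal epithelial cells. DSS, dextran sulfate sodium, is a polymer that injures the colon lining. Treated mice drank water with 2% (w/v) DSS over 5 days and then water alone for 3 days. All groups share the strain and the floxed allele as far as the labels say. The driver of the recombinase, the age and sex of the mice and the number of animals per library are not given in the sources used here. Because nothing says that replicates came from separate animals, each p-value reflects the scatter between these samples alone, and that scatter may be technical.

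Glucuronosyltransferases of the endoplasmic reticulum move glucuronic acid from UDP-glucuronate to hydroxyl, carboxyl or amine groups, and Ugt1a1 is the enzyme that conjugates bilirubin. Cytosolic sulfotransferases move a sulfate group from PAPS, an activated sulfate, to phenols, catechols, alcohols and steroids. Glutathione transferases join the thiol of glutathione to electrophiles, among them aldehydes made when membrane lipids are oxidised, and the microsomal members sit in membranes and in part make leukotrienes. In the intestine these enzymes stand in the path of compounds absorbed from the lumen, and the conjugates leave the cell through ATP-driven pumps.

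Library totals lay between 15971642 and 20418466 expected counts, at which 3 counts correspond to between 0.150 and 0.191 counts-per-million (CPM). Rora had 8 and 5 counts in RORaΔIEC DSS libraries, against 16 and 14 in RORaf/f DSS libraries. It had 4 and 3 counts in untreated RORaΔIEC libraries, against 12 and 6 in untreated RORaf/f libraries. Its log2 fold change was -1.24 ± 0.45 (SE; adjusted p = 0.0425, edgeR) with DSS and -1.10 ± 0.58 (adjusted p = 0.238, edgeR) without, at counts too low to grade the loss, and gene totals do not show which exon was lost. The RORaΔIEC DSS libraries stood apart in their mitochondrial share, which was 5.29% and 4.91% of counts, against 7.23% to 8.05% in the other 6 libraries. They also differed from each other by more than other replicate pairs, where the chi-square of their counts over genes, divided by its degrees of freedom, was 5.09, against at most 2.21 in the other groups. Epithelial markers were abundant in every library, at a summed 19310 to 22706 CPM, and no marker of that list was at 0.

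Of the 68 genes, 37 passed the filter on low counts and were tested, and 32 of these averaged at least 5 CPM over the 8 libraries. The other 31 comprised 16 with 0 counts in every library, 11 of them Sult and 5 of them Ugt genes, and 15 with between 1 and 59 counts over all libraries. Tested members were 8 of 22 Ugt, 20 of 22 Gst, 3 of 3 Mgst and 6 of 21 Sult genes. On the deposited scale of transcripts-per-million (TPM), which corrects for gene length, Mgst3 had the highest level, with a mean of 518 TPM over the 8 libraries. It was followed by Gstp1 at 429 TPM, Gsto1 at 414 TPM, Gstm1 at 327 TPM and Mgst1 at 326 TPM. Among sulfotransferases Sult1a1 led at 259 TPM and Sult1b1 followed at 183 TPM. Among glucuronosyltransferases Ugt2b34 led at 212 TPM and Ugt1a7c followed at 139 TPM. Sult1a1, Sult2b1, Gstz1, Gstt3 and Gstm5 overlap a neighbouring gene over 4.05% to 13.9% of their exon bases, where reads of the 2 genes may not be told apart.

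**Figure D1:**
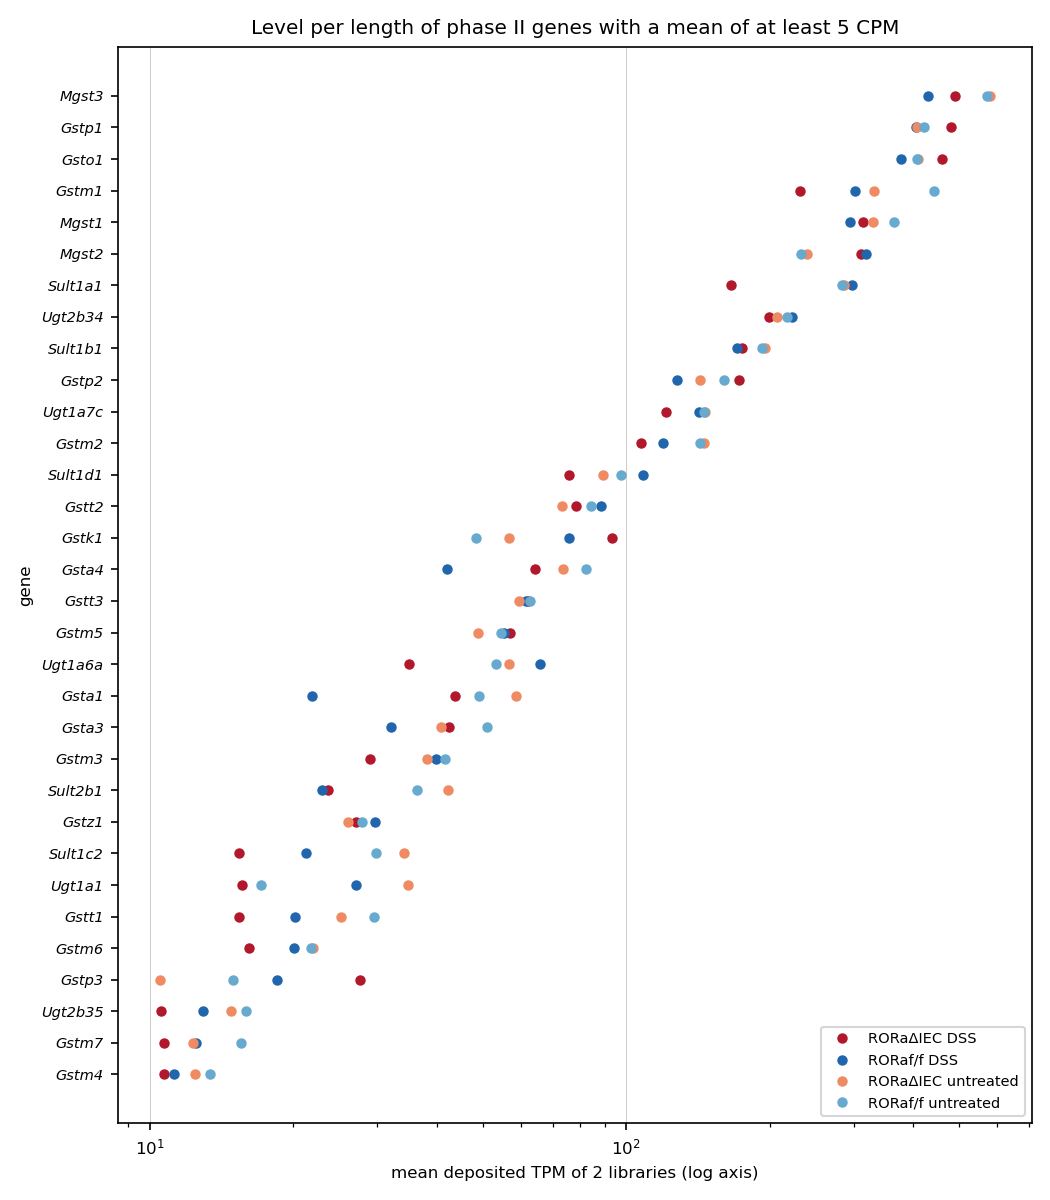
Mean deposited TPM of the 2 libraries of each group on a log axis, for the 32 genes that averaged at least 5 CPM, ordered by their mean over all 8 libraries. Mgst3, Gstp1, Gsto1, Gstm1 and Mgst1 stand at the top, and Gstm4 at the bottom with a mean of 11.9 TPM.

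Summed by family on the TPM scale, glucuronosyltransferases had 391 and 375 TPM in RORaΔIEC DSS libraries, against 473 and 474 TPM in RORaf/f DSS libraries. Sulfotransferases had 446 and 467 TPM in RORaΔIEC DSS libraries, against 610 and 633 TPM in RORaf/f DSS libraries. For both families the untreated libraries of the 2 genotypes lay close together, at 449 to 467 TPM for Ugt and 639 to 649 TPM for Sult. Soluble glutathione transferases had 1959 and 2102 TPM in RORaΔIEC DSS libraries, against 1853 and 1875 TPM in RORaf/f DSS libraries. They had 2027 and 1964 TPM in untreated RORaΔIEC libraries, against 2184 and 2163 TPM in untreated RORaf/f libraries, so the genotypes stood in the opposite order there. These sums carry no test.

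**Figure D2:**
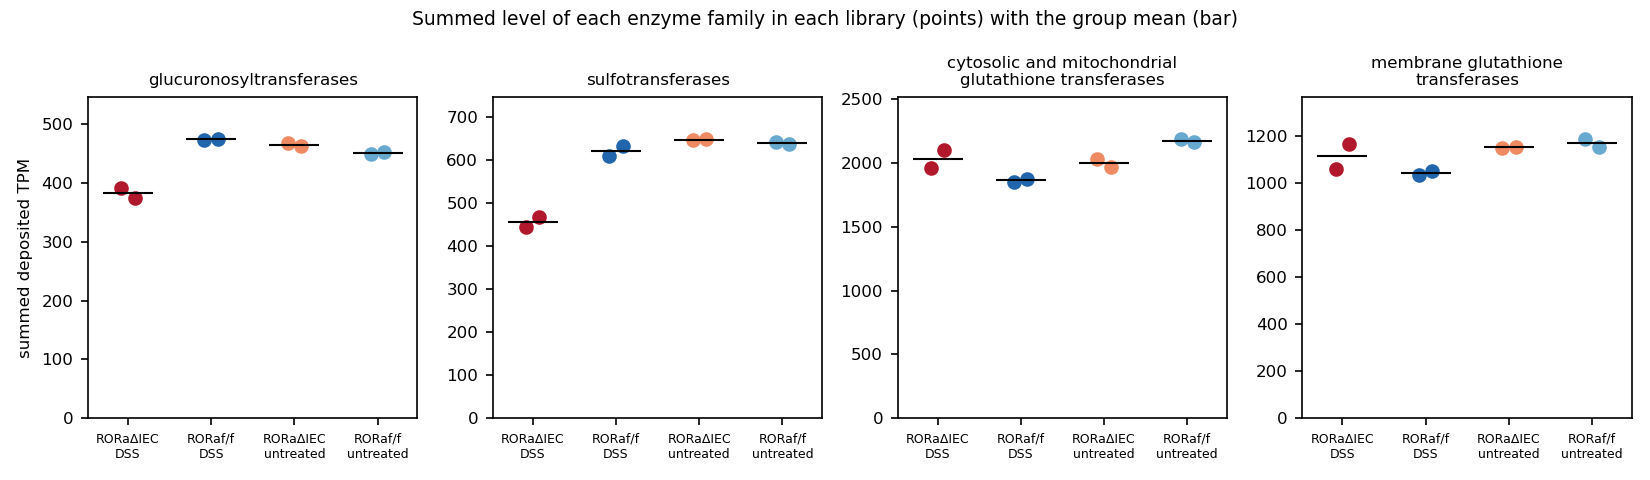
Deposited TPM summed over the genes of each family in each library (points), with the group mean (bar), on axes that start at 0. The Ugt and Sult sums are lowest in the RORaΔIEC DSS libraries, whereas the Gst sums of those libraries lie above those of RORaf/f DSS libraries.

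After DSS, RORaΔIEC and RORaf/f epithelium differed in members of every family, with soluble glutathione transferases split between directions. Of 37 tested members, 8 were higher in RORaΔIEC and all 8 were soluble glutathione transferases. Another 18 were lower, comprising 6 of 8 Ugt, 3 of 6 Sult, 8 of 20 Gst and 1 of 3 Mgst genes. Of all 14991 genes tested, 21.3% were higher and 17.7% lower by the same rule, against 21.6% and 48.6% of the tested members. In either direction 39.1% of all genes were called. The median log2 fold change was -0.21 over the tested members and -0.01 over all genes. The 4 rises that held without any single library were Gsta1, Gsta4, Gstp2 and Gsto1. The falls that held were those of Ugt1a1, Ugt1a6a, Ugt1a7c, Ugt2b34, Ugt2b35, Ugt2b5, Sult1a1, Sult1c2, Sult1d1, Gstm1, Gstm3 and Gstm7. The fall of Gstm7 (-0.46) did not hold with effective-length offsets (-0.29; adjusted p = 0.179, edgeR) or in DESeq2 (adjusted p = 0.0516). The number of rises was 4 without RORaΔIEC DSS library 2 and 5 without RORaf/f DSS library 1.

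**Figure D3:**
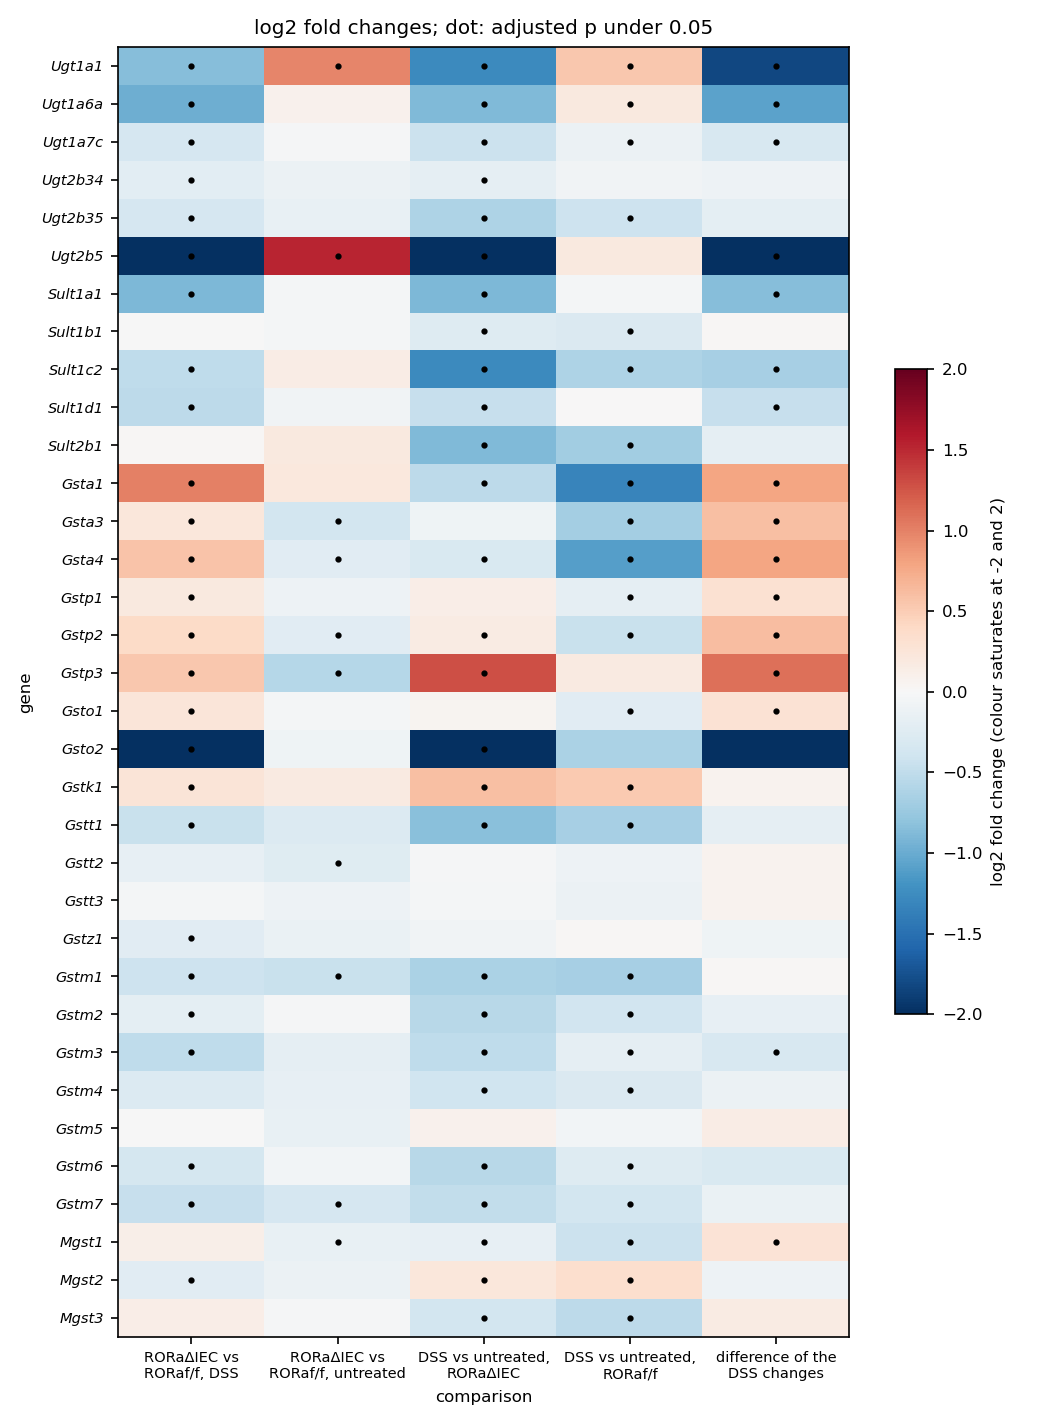
Heat map of log2 fold changes (colour, saturating at -2 and 2) of the members that averaged at least 5 CPM or had a call in some comparison, in the 4 comparisons of 2 groups and in the difference of the DSS changes (RORaΔIEC minus RORaf/f). Dots mark an adjusted p under 0.05 in edgeR. The Ugt1a, Ugt2b5 and Sult1a1 rows are blue, and the Gsta and Gstp rows red, in the first and last columns.

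The Ugt1a genes of chromosome 1 are unusual in their structure, which bears on how their reads are counted. Each has a first exon of its own, which encodes the substrate-binding part of the enzyme, joined to the same later exons. The junctions of the 3 abundant members are shown because only the lower-case part tells them apart. They are given 5′ to 3′ on the plus strand from GENCODE M21 transcripts, with the last 30 bases of exon 1 in lower case and the first 30 bases of the shared exon 2 (mm10, chr1:88215044-88215175) in capitals.
Ugt1a1: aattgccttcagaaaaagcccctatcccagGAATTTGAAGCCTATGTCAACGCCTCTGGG
Ugt1a6a: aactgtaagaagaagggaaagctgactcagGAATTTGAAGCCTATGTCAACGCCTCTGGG
Ugt1a7c: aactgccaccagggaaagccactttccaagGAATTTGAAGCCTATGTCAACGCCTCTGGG
Of the 50-base words in their transcripts, 58.2% (Ugt1a1), 52.1% (Ugt1a6a) and 53.7% (Ugt1a7c) also occur in another gene, so that RSEM shared these reads by estimate. The annotation also places an antisense gene, Gm20528, across 41.5% of the exon bases of Ugt1a1, itself at no more than 3 counts in any library, and the strand setting of the counting is not given in the sources used here.

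Ugt1a1, the bilirubin enzyme (chr1:88211959-88218997), changed in opposite directions in the 2 treatments. It had 23.4 and 22.0 CPM in RORaΔIEC DSS libraries, against 35.4 and 46.2 CPM in RORaf/f DSS libraries. Untreated RORaΔIEC libraries had 54.0 and 55.9 CPM, against 29.3 and 26.5 CPM in untreated RORaf/f libraries. No groups overlapped, and the highest group was untreated RORaΔIEC while the lowest was RORaΔIEC with DSS. The log2 fold change of RORaΔIEC against RORaf/f was -0.85 ± 0.10 (SE; adjusted p = 1.73e-05, edgeR) with DSS and 0.98 ± 0.10 (adjusted p = 1e-05, edgeR) without. DSS against untreated gave -1.28 ± 0.10 in RORaΔIEC and 0.55 ± 0.10 in RORaf/f on the log2 scale, and these changes differed by -1.82 ± 0.14 (adjusted p = 8.3e-07, edgeR). The rise in RORaf/f was 0.34 without RORaf/f DSS library 2, still past the threshold.

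Ugt1a6a, an enzyme for phenols (chr1:88134809-88218997), had 54.4 and 49.7 CPM in RORaΔIEC DSS libraries, against 101 and 105 CPM in RORaf/f DSS libraries. The untreated libraries had 98.6 and 92.6 CPM in RORaΔIEC, against 95.3 and 84.4 CPM in RORaf/f, and these 2 groups overlapped. With DSS its level in RORaΔIEC was 0.505 times that in RORaf/f, a log2 fold change of -0.98 ± 0.07 (SE; adjusted p = 4.38e-08, edgeR). Ugt1a7c, the most abundant gene of the locus per length, had 246 and 251 CPM in RORaΔIEC DSS libraries, against 316 and 310 CPM in RORaf/f DSS libraries. Its untreated libraries lay between 334 and 339 CPM in both genotypes. The DSS changes of RORaΔIEC and RORaf/f differed by -1.07 ± 0.09 for Ugt1a6a (adjusted p = 1.97e-06, edgeR) and by -0.32 ± 0.05 for Ugt1a7c (adjusted p = 0.00104, edgeR).

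Summing all 9 Ugt1a genes avoids the division of shared reads. The locus had 325 and 323 CPM in RORaΔIEC DSS libraries, against 453 and 462 CPM in RORaf/f DSS libraries. Untreated RORaΔIEC libraries had 488 and 484 CPM, against 464 and 450 CPM in untreated RORaf/f libraries. The DSS libraries of the genotypes were apart by -0.50 ± 0.04 on the log2 scale (adjusted p = 1.89e-07, edgeR). Without DSS the difference of the sum was 0.09 ± 0.04 (adjusted p = 0.144, edgeR), so the call for Ugt1a1 without DSS was not one for the locus as a whole. DSS against untreated in RORaf/f gave 0.00 ± 0.04 for the sum (adjusted p = 0.979, edgeR), beside a rise of Ugt1a1 and values of 0.19 for Ugt1a6a and -0.11 for Ugt1a7c.

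Ugt2b genes lie on chromosome 5 and act on steroids, bile acids and other lipids as well as drugs. Ugt2b34, the most abundant of all Ugt genes per length, had 416 and 405 CPM in RORaΔIEC DSS libraries, against 476 and 474 CPM in RORaf/f DSS libraries (log2 fold change -0.21 ± 0.04 SE; adjusted p = 0.000617, edgeR). Ugt2b35 had 23.1 and 24.5 CPM in RORaΔIEC DSS libraries, against 29.4 and 30.9 CPM in RORaf/f DSS libraries (-0.34 ± 0.07; adjusted p = 0.000937, edgeR). In both genotypes Ugt2b35 fell with DSS, by 0.61 on the log2 scale in RORaΔIEC and by 0.42 in RORaf/f. The test of that difference gave adjusted p = 0.147 (edgeR).

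Ugt2b5 (chr5:87124960-87140318) was a minor transcript with the widest range of all tested members between groups. It had 5 and 4 counts in RORaΔIEC DSS libraries, against 37 and 34 in RORaf/f DSS libraries. It had 77 and 94 counts in untreated RORaΔIEC libraries, against 37 and 33 in untreated RORaf/f libraries. As for Ugt1a1, untreated RORaΔIEC libraries were highest and RORaΔIEC DSS libraries lowest. From the summed counts, the ratio of RORaΔIEC to RORaf/f was 0.122 with DSS (95% exact counting interval 0.0537 to 0.245) and 2.88 without (2.17 to 3.86), where the intervals cover counting error only. Its log2 fold changes were -3.00 ± 0.35 with DSS (SE; adjusted p = 1.03e-05, edgeR) and 1.52 ± 0.20 without (adjusted p = 0.000124, edgeR). The DSS changes differed by -4.52 ± 0.40 (adjusted p = 2.75e-06, edgeR). Of its 50-base words 34.8% also occur in Ugt2b38, which had 0 counts in every library.

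Of 6 tested sulfotransferases, 5 fell with DSS in RORaΔIEC, where 19.8% of all genes fell, and 3 in RORaf/f, where 18.3% of all genes fell. Sult1a1, the phenol sulfotransferase (chr7:126672865-126676432), had 126 and 132 CPM in RORaΔIEC DSS libraries, against 232 and 250 CPM in RORaf/f DSS libraries. Untreated libraries had 238 and 244 CPM in RORaΔIEC, against 253 and 244 CPM in RORaf/f. The RORaΔIEC DSS libraries were the low ones, and the other 6 lay within 232 to 253 CPM. RORaΔIEC against RORaf/f was -0.90 ± 0.05 with DSS (SE; adjusted p = 5.32e-09, edgeR) and -0.04 ± 0.05 without (adjusted p = 0.591, edgeR), on the log2 scale. The DSS changes differed by -0.86 ± 0.07 (adjusted p = 9.51e-07, edgeR).

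Sult1d1, a sulfotransferase that acts on catecholamines in mice, showed the same layout at smaller size. It had 108 and 113 CPM in RORaΔIEC DSS libraries, against 158 and 160 CPM in RORaf/f DSS libraries, while the untreated libraries lay between 149 and 160 CPM. Its log2 fold change with DSS was -0.53 ± 0.05 (SE; adjusted p = 5.33e-07, edgeR). Sult1c2 fell in both genotypes, and further in RORaΔIEC. It had 18.5 and 17.9 CPM in RORaΔIEC DSS libraries, against 25.8 and 26.2 CPM in RORaf/f DSS libraries. Without DSS it had 43.0 and 44.9 CPM in RORaΔIEC, against 40.8 and 38.5 CPM in RORaf/f. Its DSS change was -1.27 ± 0.07 in RORaΔIEC and -0.61 ± 0.06 in RORaf/f (log2 ± SE), with a difference of -0.66 ± 0.09 (adjusted p = 0.000203, edgeR).

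The other abundant sulfotransferases had no call between the genotypes in edgeR. Sult2b1, which sulfates cholesterol and other steroids, had 15.4 and 17.2 CPM in RORaΔIEC DSS libraries, against 16.4 and 15.7 CPM in RORaf/f DSS libraries. Its DSS change was -0.88 ± 0.08 in RORaΔIEC and -0.70 ± 0.08 in RORaf/f (log2 ± SE), and the test of their difference gave adjusted p = 0.304 (edgeR). Sult1b1, known for sulfation of thyroid hormones and phenols, had 136 and 143 CPM in RORaΔIEC DSS libraries, against 138 and 144 CPM in RORaf/f DSS libraries. Its DSS changes were -0.27 ± 0.05 in RORaΔIEC and -0.29 ± 0.05 in RORaf/f (log2 ± SE).

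**Figure D4:**
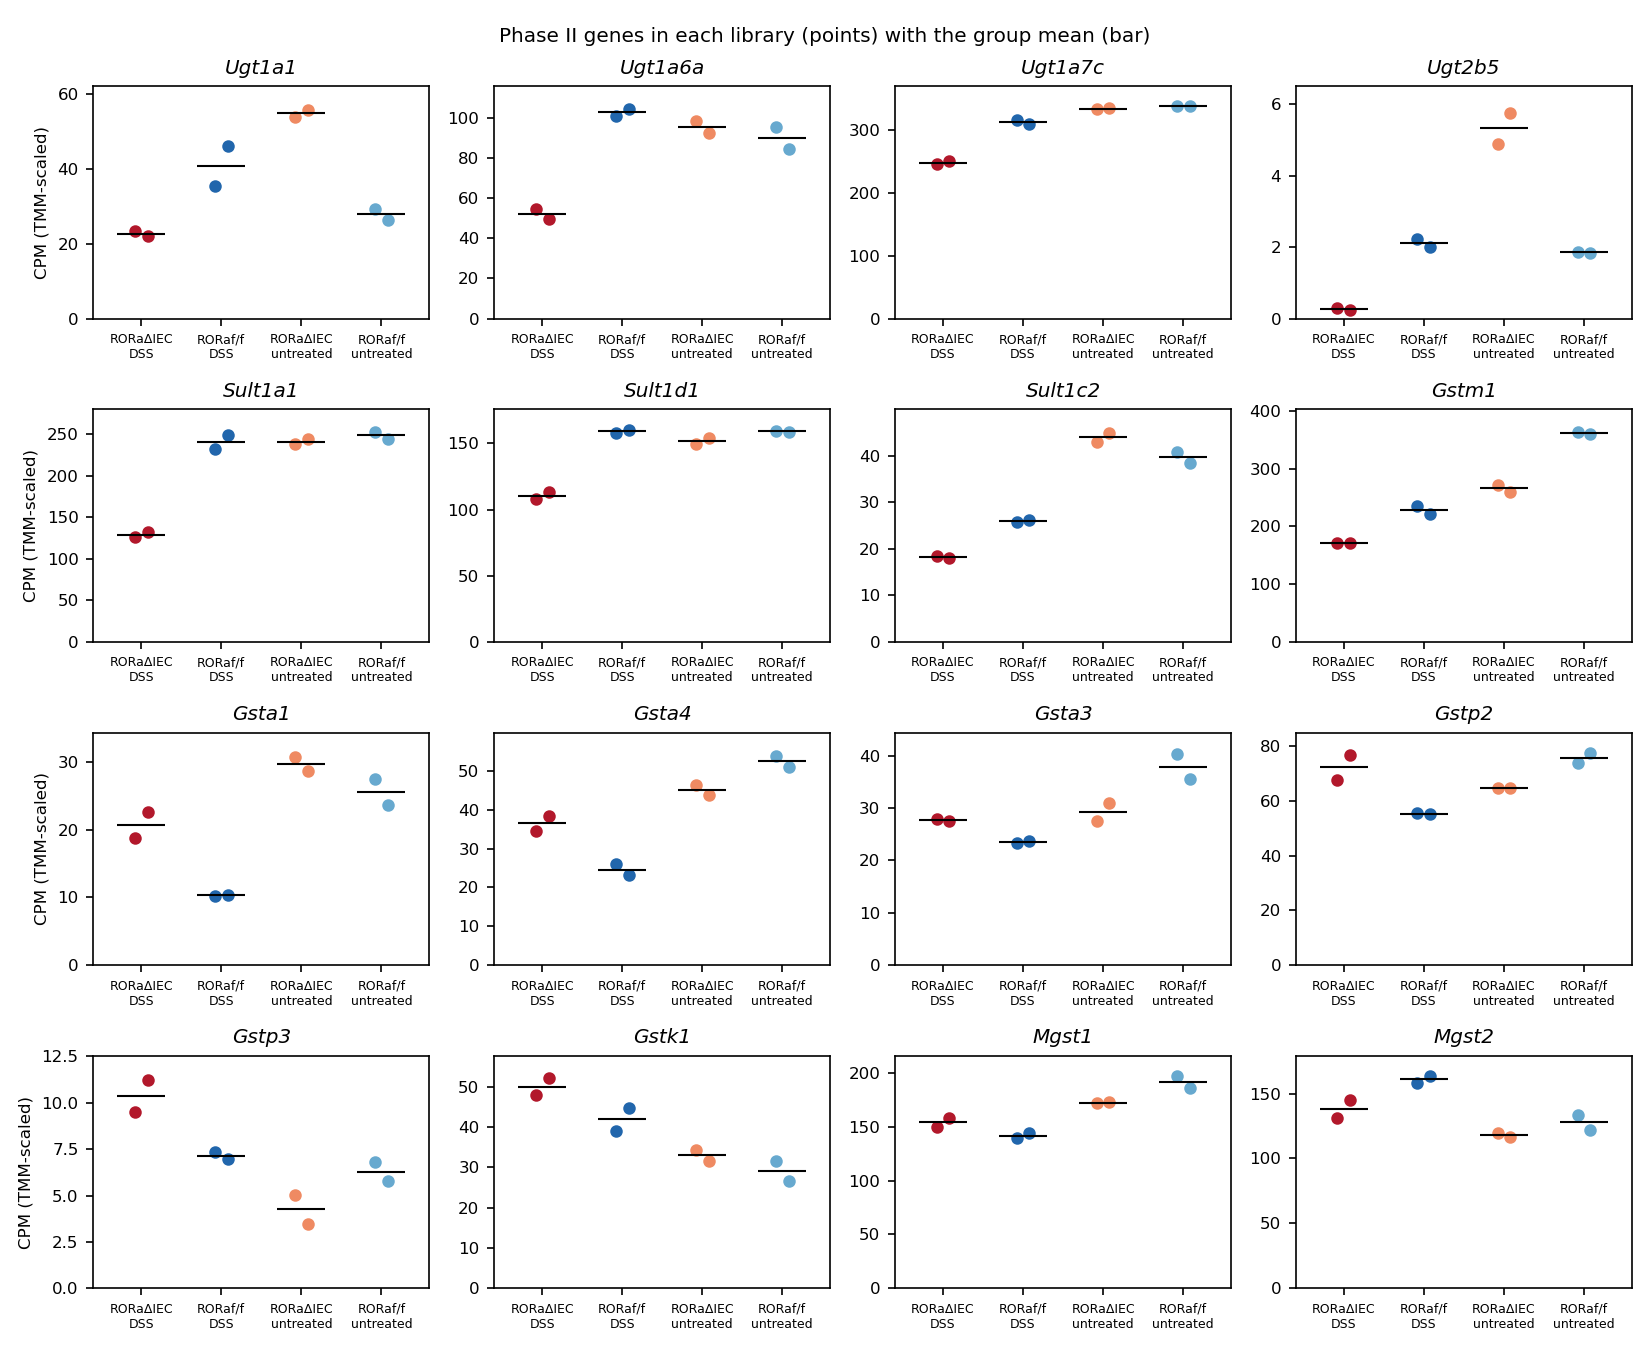
Scaled CPM of 16 members in each library (points) with the group mean (bar), on axes that start at 0. Ugt1a1 and Ugt2b5 are highest in untreated RORaΔIEC and lowest in RORaΔIEC DSS libraries, Sult1a1 is low only in RORaΔIEC DSS libraries, and Gsta1 and Gsta4 are lowest in RORaf/f DSS libraries.

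Alpha-class glutathione transferases, which handle lipid hydroperoxides and their aldehydes, went the other way. Gsta1 (chr9:78230656-78242684) had 18.8 and 22.6 CPM in RORaΔIEC DSS libraries, against 10.2 and 10.4 CPM in RORaf/f DSS libraries. Without DSS it had 30.8 and 28.7 CPM in RORaΔIEC, against 27.6 and 23.7 CPM in RORaf/f. The RORaf/f DSS libraries were the low ones. Its log2 fold change of RORaΔIEC against RORaf/f was 1.00 ± 0.11 with DSS (SE; adjusted p = 8.33e-06, edgeR), a fold of 2.01, and 0.21 ± 0.09 without (adjusted p = 0.143, edgeR). DSS gave -0.52 ± 0.10 in RORaΔIEC and -1.31 ± 0.11 in RORaf/f.

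Gsta1 has near copies, and 75.7% of its 50-base words also occur in the gene model Gm3776, so the division of reads between them is uncertain. With Gsta1, Gsta2, Gm3776 and Gm10639 summed, there were 33.9 and 39.4 CPM in RORaΔIEC DSS libraries, against 17.6 and 20.0 CPM in RORaf/f DSS libraries. The sum differed by 0.96 ± 0.09 on the log2 scale (SE; adjusted p = 1.12e-06, edgeR). Without DSS it differed by 0.23 ± 0.07 (adjusted p = 0.0413, edgeR), a call that Gsta1 alone did not reach.

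Gsta4, the enzyme best known for conjugating 4-hydroxynonenal, a product of lipid peroxidation, had 34.6 and 38.5 CPM in RORaΔIEC DSS libraries, against 26.0 and 23.2 CPM in RORaf/f DSS libraries. Without DSS it had 46.5 and 43.8 CPM in RORaΔIEC, against 54.0 and 51.0 CPM in RORaf/f, so the order of the genotypes was the reverse of that with DSS. It shares no 50-base word with another gene. Its DSS change was -0.31 ± 0.07 in RORaΔIEC and -1.09 ± 0.07 in RORaf/f (log2 ± SE), with a difference of 0.79 ± 0.10 (adjusted p = 0.000101, edgeR). Gsta3 had 28.0 and 27.5 CPM in RORaΔIEC DSS libraries, against 23.4 and 23.8 CPM in RORaf/f DSS libraries. Untreated RORaΔIEC libraries had 27.5 and 31.0 CPM, against 40.3 and 35.5 CPM in untreated RORaf/f libraries. The DSS change of Gsta3 was -0.08 ± 0.08 in RORaΔIEC, which did not pass the test, and -0.69 ± 0.08 in RORaf/f, with a difference of 0.61 ± 0.11 (adjusted p = 0.00164, edgeR).

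Pi-class transferases, 3 neighbouring genes on chromosome 19, followed a similar order. Gstp2 had 67.7 and 76.7 CPM in RORaΔIEC DSS libraries, against 55.6 and 55.0 CPM in RORaf/f DSS libraries. Untreated RORaΔIEC libraries had 64.7 and 64.6 CPM, against 73.8 and 77.5 CPM in untreated RORaf/f libraries. RORaΔIEC was thus above RORaf/f with DSS (log2 fold change 0.38 ± 0.06 SE; adjusted p = 0.000185, edgeR) and below it without (-0.23 ± 0.06; adjusted p = 0.0200, edgeR). The call without DSS was lost without each untreated library, with effective-length offsets (-0.22) and in DESeq2 (-0.23). Gstp1, the second most abundant member, had 185 and 211 CPM in RORaΔIEC DSS libraries, against 166 and 177 CPM in RORaf/f DSS libraries. Its log2 fold change was 0.20 ± 0.06 (SE; adjusted p = 0.0138, edgeR), 0.16 without RORaf/f DSS library 1 and 0.10 without RORaΔIEC DSS library 2, both no longer past the threshold. Gstp1 and Gstp2 share 33.7% and 49.1% of their 50-base words with each other. Summed, they had 252 and 287 CPM in RORaΔIEC DSS libraries, against 222 and 232 CPM in RORaf/f DSS libraries (0.25 ± 0.05; adjusted p = 0.00240, edgeR). Without DSS the sum differed by -0.14 ± 0.05 (adjusted p = 0.114, edgeR), which was not called.

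Gstp3, the least abundant of them, had 9.49 and 11.2 CPM in RORaΔIEC DSS libraries, against 7.33 and 6.95 CPM in RORaf/f DSS libraries. It had 5.02 and 3.49 CPM in untreated RORaΔIEC libraries, against 6.81 and 5.77 CPM in untreated RORaf/f libraries. DSS raised it in RORaΔIEC, with a log2 fold change of 1.29 ± 0.17 (SE; adjusted p = 2.15e-05, edgeR) that held without any single library. In RORaf/f the value was 0.18 ± 0.16 (adjusted p = 0.410, edgeR), and the changes differed by 1.11 ± 0.23 (adjusted p = 0.00400, edgeR). Its difference between genotypes with DSS was 0.54 ± 0.15 (adjusted p = 0.0107, edgeR), 0.50 without RORaf/f DSS library 2 and 0.41 without RORaΔIEC DSS library 2, both no longer past the threshold.

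Gsto1, an omega-class enzyme with thioltransferase activity, had 308 and 339 CPM in RORaΔIEC DSS libraries, against 265 and 282 CPM in RORaf/f DSS libraries (log2 fold change 0.24 ± 0.05 SE; adjusted p = 0.00245, edgeR). Its untreated libraries lay between 301 and 325 CPM and overlapped between genotypes. Gsto2, its neighbour, had a total of 4 counts in RORaΔIEC DSS libraries, against 17 in RORaf/f DSS libraries, a ratio of 0.227 with a 95% exact counting interval of 0.0556 to 0.696. That call was lost without each of the 4 DSS libraries, with log2 values that included -2.14 without RORaf/f DSS library 1 and -2.07 without either RORaΔIEC DSS library. Gstk1, which lies in mitochondria and peroxisomes, rose with DSS in both genotypes, by 0.60 ± 0.09 in RORaΔIEC and 0.52 ± 0.09 in RORaf/f (log2 ± SE; adjusted p = 5.47e-05 and 0.000339, edgeR). It had 47.9 and 52.2 CPM in RORaΔIEC DSS libraries, against 39.2 and 44.8 CPM in RORaf/f DSS libraries, and 34.4 and 31.7 CPM in untreated RORaΔIEC libraries, against 31.6 and 26.7 CPM in untreated RORaf/f libraries. Its call between genotypes with DSS was lost without RORaf/f DSS library 1 (0.16) and without RORaΔIEC DSS library 2 (0.19).

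Mu-class transferases, encoded in a cluster on chromosome 3, did not follow the alpha and pi classes. Gstm1 (chr3:108012255-108017973), the most abundant of them, had 171 and 170 CPM in RORaΔIEC DSS libraries, against 235 and 222 CPM in RORaf/f DSS libraries. Untreated RORaΔIEC libraries had 271 and 260 CPM, against 363 and 360 CPM in untreated RORaf/f libraries. It was lower in RORaΔIEC under both treatments, with log2 fold changes of -0.42 ± 0.04 with DSS (SE; adjusted p = 4.37e-06, edgeR) and -0.45 ± 0.04 without (adjusted p = 9.1e-06, edgeR). DSS lowered it by 0.64 in RORaΔIEC and by 0.66 in RORaf/f on the log2 scale. These changes differed by 0.03 ± 0.06 (adjusted p = 0.810, edgeR). Gstm3 had 22.8 and 23.8 CPM in RORaΔIEC DSS libraries, against 33.3 and 32.8 CPM in RORaf/f DSS libraries (-0.50 ± 0.07; adjusted p = 3.01e-05, edgeR), where 28.8% of its 50-base words occur in another gene.

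The remaining mu-class genes with DSS were at -0.46 (Gstm7), -0.36 (Gstm6), -0.28 (Gstm4), -0.19 (Gstm2) and 0.00 (Gstm5) in RORaΔIEC against RORaf/f on the log2 scale, of which Gstm7, Gstm6 and Gstm2 passed the test. The call for Gstm6 was lost without RORaf/f DSS library 2 (-0.28). That for Gstm2 was lost without RORaf/f DSS libraries 1 or 2 (-0.19 each) and without RORaΔIEC DSS library 1 (-0.11). Gstt1, a theta-class enzyme, had 9.09 and 9.61 CPM in RORaΔIEC DSS libraries, against 11.8 and 13.6 CPM in RORaf/f DSS libraries, a call lost without RORaf/f DSS library 2 (-0.33). Its DSS change was -0.83 ± 0.11 in RORaΔIEC and -0.66 ± 0.10 in RORaf/f (log2 ± SE; adjusted p = 3.78e-05 and 0.000188, edgeR). Gstz1, which acts in tyrosine breakdown, was at -0.22 ± 0.08 with DSS (adjusted p = 0.0386, edgeR), and this call was lost without RORaf/f DSS library 1 (-0.14) and without RORaΔIEC DSS library 1 (-0.14).

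Membrane-bound transferases were abundant per length, with all 3 genes among the 6 highest members on the TPM scale. Mgst3 had 293 and 345 CPM in RORaΔIEC DSS libraries, against 283 and 297 CPM in RORaf/f DSS libraries, groups that overlapped. Its untreated libraries lay between 410 and 422 CPM, and it fell with DSS by 0.37 in RORaΔIEC and by 0.53 in RORaf/f on the log2 scale. Mgst1 had 150 and 158 CPM in RORaΔIEC DSS libraries, against 139 and 144 CPM in RORaf/f DSS libraries, and 172 and 173 CPM in untreated RORaΔIEC libraries, against 197 and 186 CPM in untreated RORaf/f libraries. Its DSS change was -0.16 ± 0.05 in RORaΔIEC and -0.43 ± 0.05 in RORaf/f (log2 ± SE). The fall in RORaΔIEC was not called without untreated RORaΔIEC library 1 (-0.17) or 2 (-0.16). Mgst2, which can form leukotriene C4, rose with DSS instead. It had 131 and 145 CPM in RORaΔIEC DSS libraries, against 158 and 164 CPM in RORaf/f DSS libraries, while untreated libraries lay between 116 and 133 CPM. Its rise was 0.33 ± 0.06 in RORaf/f (log2 ± SE; adjusted p = 0.00039, edgeR). In RORaΔIEC it was 0.23 ± 0.06 (adjusted p = 0.00573, edgeR), not called without untreated RORaΔIEC library 2 (0.21), and 0.15 without RORaΔIEC DSS library 2. Its difference between genotypes with DSS, -0.22 ± 0.06, was not called without RORaf/f DSS library 2 (-0.20) and was -0.09 when gene length per library was allowed for.

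Without DSS, RORaΔIEC and RORaf/f differed in 10 of the tested members, mostly by small amounts. Ugt1a1 and Ugt2b5 were higher in RORaΔIEC, which is 2 of 37 tested members (5.41%), against 9.19% of all genes tested. A further 8 members (21.6%) were lower, against 6.22% of all genes (15.4% in either direction), comprising Gstm1, Gsta3, Gsta4, Gstm7, Gstp2, Gstp3, Gstt2 and Mgst1. The median log2 fold change was -0.10 over the tested members and 0.01 over all genes. The fall of Gstm1 held without any single library and under every other setting run. The other 7 had log2 fold changes between -0.57 and -0.15, and each was lost without at least 1 library. The number of lower members was 2 and 3 without untreated RORaΔIEC library 1 or 2, 1 and 3 without untreated RORaf/f library 1 or 2, and 5 without either RORaf/f DSS library.

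DSS changed the members mainly downwards in both genotypes. In RORaΔIEC, 23 of 37 tested members (62.2%) fell and 4 (10.8%) rose, against 19.8% and 21.7% of all genes (41.6% in either direction), and their median log2 fold change was -0.40. The falls comprised 6 of 8 Ugt, 5 of 6 Sult, 10 of 20 Gst and 2 of 3 Mgst genes. Ugt2b5, Gsto2, Ugt1a1, Sult1c2 and Sult1a1 led them. Gsto2 had a total of 4 counts in RORaΔIEC DSS libraries, against 24 in untreated RORaΔIEC libraries. That is a ratio of 0.153 with a 95% exact counting interval of 0.0387 to 0.446. The rises were Gstp3, Gstk1, Mgst2 and Gstp2. Without untreated RORaΔIEC library 2 the number of rises was 2. Gstp2, at 0.16 ± 0.06, lost its call without 7 of the 8 libraries, the exception being RORaΔIEC DSS library 1, without which it was 0.25.

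In RORaf/f, 20 of 37 tested members (54.1%) fell with DSS and 4 (10.8%) rose, against 18.3% and 18.9% of all genes (37.2% in either direction), and the median was -0.19. Here 13 of the 20 falls were soluble Gst genes, led by Gsta1, Gsta4, Gsta3, Gstm1 and Gstt1, and 2 were Ugt genes. The rises were Ugt1a1, Gstk1, Mgst2 and Ugt1a6a, of which Ugt1a6a (0.19) lost its call without untreated RORaf/f library 2 or either RORaf/f DSS library. Without RORaf/f DSS library 1 the number of falls was 13.

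The test of whether DSS changed a gene differently in the 2 genotypes gave 16 calls among the 37 tested members. For 8 (21.6%) the DSS change was higher in RORaΔIEC and for 8 (21.6%) lower, against 10.8% and 10.6% of all genes (21.4% in either direction). The higher ones were Gsta1, Gsta3, Gsta4, Gstp1, Gstp2, Gstp3, Gsto1 and Mgst1, all of them glutathione transferases. The lower ones were 4 Ugt genes (Ugt1a1, Ugt1a6a, Ugt1a7c and Ugt2b5), 3 Sult genes (Sult1a1, Sult1c2 and Sult1d1) and Gstm3. The differences for Gsto1 (0.28), Gstp1 (0.31), Mgst1 (0.27) and Gstm3 (-0.33) were each lost without RORaf/f DSS library 1 and at least 1 untreated library. The other 12 held without any single library. The number of higher members was 5 without RORaf/f DSS library 1, untreated RORaf/f library 1 or untreated RORaΔIEC library 2.

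Genes that supply or recycle the transferred groups were taken as lists, whose counts with DSS stand beside 21.3% higher and 17.7% lower among all genes tested and a median of -0.01. Of 6 UDP-sugar genes tested, 2 were higher and 1 lower in RORaΔIEC against RORaf/f with DSS, with a median log2 fold change of 0.01. The higher ones were Slc35b1 (0.54 ± 0.05 SE; adjusted p = 1.61e-06, edgeR), a nucleotide transporter of the endoplasmic reticulum, and Uxs1 (0.23), which makes UDP-xylose. The lower one was Ugdh, which makes UDP-glucuronate. It had 198 and 202 CPM in RORaΔIEC DSS libraries, against 308 and 312 CPM in RORaf/f DSS libraries (-0.63 ± 0.04 SE; adjusted p = 2.58e-08, edgeR). Its DSS changes differed between genotypes by -0.48 ± 0.06 (adjusted p = 4.08e-05, edgeR). Of 7 PAPS genes tested, 3 were higher and 3 lower with DSS (median -0.02). The lower ones were the sulfate transporter Slc26a2 (-0.47) and the PAPS synthases Papss2 (-0.21) and Papss1 (-0.16), and the higher ones included Bpnt1 (0.15), which degrades the spent donor.

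Glutathione synthesis and recycling genes were 6 higher and 3 lower of 12 tested with DSS (median 0.20). Gsr, glutathione reductase, was at 0.82 ± 0.05 (SE; adjusted p = 6.81e-09, edgeR) and Slc7a11, the cystine importer, at 1.24 ± 0.13 (adjusted p = 2.89e-06, edgeR). Dpep1, which cleaves cysteinyl-glycine bonds, was at -1.04 ± 0.05 (adjusted p = 8.76e-10, edgeR), and Oplah, which opens 5-oxoproline, at -0.64 ± 0.06 (adjusted p = 2.16e-06, edgeR). Gclc, a glutathione synthesis gene, was at 78.3 and 76.3 CPM in RORaΔIEC DSS libraries, against 92.6 and 91.4 CPM in RORaf/f DSS libraries. The DSS change of Gsr was 0.43 ± 0.04 in RORaΔIEC and -0.31 ± 0.05 in RORaf/f (log2 ± SE), with a difference of 0.74 ± 0.06 (adjusted p = 2.45e-06, edgeR). Of 10 tested genes of the glutathione transferase fold or the membrane class outside the families above, 6 were higher and 2 lower with DSS (median 0.30). The higher ones included Alox5ap (3.27), which serves leukotriene synthesis and is known from leukocytes, Clic1 (0.49) and Eef1g (0.31). In RORaΔIEC DSS libraries Ptges was at 6.33 and 7.55 CPM and Gstcd at 13.4 and 10.9 CPM. RORaf/f DSS libraries had 4.03 and 3.41 CPM of Ptges and 7.45 and 6.89 CPM of Gstcd. In the other direction, Hpgds was at 2.30 and 2.12 CPM in RORaΔIEC DSS libraries, against 4.39 and 3.59 CPM in RORaf/f DSS libraries. Clic6 was at 63.8 and 57.7 CPM, against 76.3 and 76.1 CPM. Of 7 tested genes listed under conjugation with acetyl, methyl or amino acid groups, Acsm3 alone was called with DSS (-0.15).

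Of 8 export pumps tested, 4 were lower in RORaΔIEC with DSS (median -0.26), against 17.7% of all genes. These were Abcb1a, the drug efflux pump (-0.99 ± 0.04 SE; adjusted p = 9.16e-10, edgeR), Abcc5 (-1.18), Abcc6 (-0.66) and Abcc3 (-0.18). The others tested, Abcc1, Abcc2, Abcc4 and Abcg2, were not called. Of 5 tested deconjugating enzymes, Gusb, the lysosomal beta-glucuronidase, was higher (0.53 ± 0.06; adjusted p = 6e-06, edgeR) and Arsb lower (-0.21). Of 18 tested factors that sense xenobiotics and bile acids, 2 were higher and 9 lower (median -0.18), against 21.3% and 17.7% of all genes. The falls included Vdr (-0.45), Cdx2 (-0.45), Rxra (-0.33) and Ppara (-0.98). In the other direction, Nr1h4 was at 68.4 and 74.3 CPM in RORaΔIEC DSS libraries, against 57.0 and 59.6 CPM in RORaf/f DSS libraries. Keap1 was at 70.0 and 65.4 CPM in RORaΔIEC DSS libraries, against 57.4 and 58.6 CPM in RORaf/f DSS libraries. Nfe2l2, which encodes the factor that acts at antioxidant response elements, had a DSS change that was lower in RORaΔIEC by 0.39 on the log2 scale (adjusted p = 0.000399, edgeR). It had 195 and 190 CPM in RORaΔIEC DSS libraries, against 217 and 220 CPM in RORaf/f DSS libraries. Untreated RORaΔIEC libraries were the higher ones, at 236 and 227 CPM, against 203 and 196 CPM in untreated RORaf/f libraries.

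Promoter sequence was examined for 3 short motifs in windows of 250 bases before to 50 after each start site, from RefSeq (GRCm38.p6), which held 60 of the 68 members. The antioxidant response element core TGACNNNGC occurs on either strand in 12.4% of all 32851 promoters of that table, the xenobiotic response element core GCGTG in 32.4% and the nuclear receptor core AGGTCA in 16.3%. These shares are per promoter, whereas a member was counted where any of its promoters held the core. The 60 members had 72 promoters. Among the 8 members whose DSS change was higher in RORaΔIEC, 7 had a promoter in the table. Of these, Gsta3 and Mgst1 held the antioxidant core, Gsta1, Gstp1 and Gstp3 the xenobiotic core, and none the receptor core. Among the 8 members whose DSS change was lower, Sult1d1 held the xenobiotic core and Ugt1a7c and Ugt2b5 the receptor core, the letters bound by RORα and many other nuclear receptors. Of the 19 tested members with no call and a promoter, 2 held the antioxidant core, 5 the xenobiotic core and 5 the receptor core. A match is a description of these letters and not evidence of binding.

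The promoters of Gsta3, Mgst1 and Ugt2b5 are shown because they hold the rarer motifs in members named above, with the match in capitals, each 5′ to 3′ on the strand of its gene. Gsta3 (chr1:21240335-21240634, plus strand) and Mgst1 (chr6:138140277-138140576, plus strand, with the match on the opposite strand) hold the antioxidant core, and Ugt2b5 (chr5:87140291-87140590, minus strand) the receptor core.
Gsta3: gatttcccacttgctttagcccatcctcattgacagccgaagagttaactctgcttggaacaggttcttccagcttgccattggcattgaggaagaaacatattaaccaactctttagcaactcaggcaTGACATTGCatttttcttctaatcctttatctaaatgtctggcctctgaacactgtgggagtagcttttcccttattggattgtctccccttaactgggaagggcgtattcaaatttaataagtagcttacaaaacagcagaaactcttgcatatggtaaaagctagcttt
Mgst1: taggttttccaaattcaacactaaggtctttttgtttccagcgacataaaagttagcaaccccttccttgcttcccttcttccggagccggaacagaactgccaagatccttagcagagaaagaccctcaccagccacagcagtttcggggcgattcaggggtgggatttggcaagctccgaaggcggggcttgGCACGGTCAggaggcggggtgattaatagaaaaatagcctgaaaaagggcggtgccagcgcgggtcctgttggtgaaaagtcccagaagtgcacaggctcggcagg
Ugt2b5: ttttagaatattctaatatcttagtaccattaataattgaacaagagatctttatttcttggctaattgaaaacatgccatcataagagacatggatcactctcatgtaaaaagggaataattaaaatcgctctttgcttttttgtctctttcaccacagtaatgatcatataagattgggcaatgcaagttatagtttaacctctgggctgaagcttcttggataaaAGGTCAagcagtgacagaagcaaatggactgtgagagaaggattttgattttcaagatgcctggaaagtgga

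Markers of other cells and states moved with the groups, and their part in the results above was not tested. In bulk samples fewer cells of a type and less RNA per cell cannot be told apart. Summed mature colonocyte markers were at 4834 and 4916 CPM in RORaΔIEC DSS libraries, against 5576 and 5605 CPM in RORaf/f DSS libraries, and at 8822 and 8795 CPM in untreated RORaΔIEC libraries, against 8245 and 8183 CPM in untreated RORaf/f libraries. Of 11 tested, 7 were lower and 1 higher in RORaΔIEC with DSS, against 17.7% and 21.3% of all genes. Goblet markers summed to 8121 and 8190 CPM in RORaΔIEC DSS libraries, against 10230 and 9943 CPM in RORaf/f DSS libraries, and to between 16789 and 17477 CPM without DSS. Of 9 goblet markers tested, 4 were lower and 0 higher in RORaΔIEC with DSS, and 5 were not called (median -0.15). All 12 proliferation markers were higher in RORaΔIEC under both treatments, against 21.3% of all genes with DSS and 9.19% without. Their sums were 1115 and 1067 CPM in RORaΔIEC DSS libraries, against 506 and 492 CPM in RORaf/f DSS libraries. Without DSS they were 840 and 843 CPM in RORaΔIEC, against 584 and 574 CPM in RORaf/f. Neutrophil markers summed to 267 and 289 CPM in RORaΔIEC DSS libraries, against 19.0 and 19.7 CPM in RORaf/f DSS libraries, and to less than 1 CPM in each untreated library, where 8 or 9 of 12 were at 0. Macrophage markers summed to 161 and 171 CPM in RORaΔIEC DSS libraries, against 75.6 and 75.0 CPM in RORaf/f DSS libraries. Of 10 tested, 6 were higher and 0 lower in RORaΔIEC with DSS. Most of the sum was Cd14, at 106 and 112 CPM in RORaΔIEC DSS libraries, against 47.2 and 47.8 CPM in RORaf/f DSS libraries. Cd14 was already at 39.4 to 42.3 CPM in untreated libraries. Enteroendocrine and tuft markers summed to 266 CPM in each RORaΔIEC DSS library, against 357 and 359 CPM in RORaf/f DSS libraries, with 6 of 10 lower and 1 higher (median -0.54). Stem and crypt markers summed to 611 and 589 CPM in RORaΔIEC DSS libraries, against 675 and 667 CPM in RORaf/f DSS libraries, with 4 of 9 tested lower and 1 higher (median -0.24). Lymphoid markers and markers of fibroblasts, endothelium and muscle stayed under 15 CPM in sum in every library.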

How the data were processed

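RNA-seq of distal colon epithelial cells was deposited as 1 table per library. The deposited expected counts per gene divide reads that map to several genes by estimate, and the deposited TPM values are corrected for effective length, per the file headers (RSEM output). Tools listed in the submitters' processing notes are RSEM 1.3.0, STAR 2.5.3a and DESeq2 1.18.1, with genome build mm10; annotation release and strand setting are not given in the sources used here.

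Expected counts were rounded and fitted in R 4.3.3 with edgeR 4.0.16 (TMM scaling, filterByExpr, which kept 14991 genes, quasi-likelihood test) as 1 mean per group over all 8 libraries. Two-sided p-values were adjusted by Benjamini-Hochberg over all genes tested, at a threshold of 0.05. "Higher", "lower", "rose" and "fell" mean past that threshold. The SE is the absolute log2 fold change over the square root of the F statistic, and for genes with few counts it can be smaller than counting error. CPM are TMM-scaled. TPM entered no test. Alternatives were RLE scaling, DESeq2 1.42.0, no filter, effective-length offsets, only the groups compared, a replicate block, leaving out each library and summing the Ugt1a genes. Further sums, of Gsta1 with its near copies and of Gstp1 with Gstp2, were chosen after seeing the data. Positions and 50-base words are from GENCODE M21, which matched 99.8% of identifiers.

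Members with a mean of at least 5 CPM were named in each comparison by the largest changes, up to 6 in each direction, with the 5 highest by TPM; genes below that level were named where called, and up to 3 genes per list by smallest p. Other members named were chosen after their values were seen, as were Slc7a11, Bpnt1, Abcc3, Ppara and the list genes given for a second comparison. Members and lists were chosen with earlier results of these data known.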

Additional observations from a re-analysis of the deposited data

Results flagged for a closer look

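The DSS change differed between genotypes for 16 members by the test of that difference (edgeR, log2 scale, RORaΔIEC minus RORaf/f). Among glucuronosyltransferases the difference was -1.82 for Ugt1a1, -1.07 for Ugt1a6a, -0.32 for Ugt1a7c and -4.52 for Ugt2b5. Among sulfotransferases it was -0.86 for Sult1a1, -0.66 for Sult1c2 and -0.46 for Sult1d1. Among glutathione transferases it was 0.79 for Gsta1, 0.61 for Gsta3, 0.79 for Gsta4, 0.31 for Gstp1, 0.61 for Gstp2, 1.11 for Gstp3, 0.28 for Gsto1 and 0.27 for Mgst1, and -0.33 for Gstm3. For Ugt1a1 alone among them, both DSS changes passed the test with opposite signs under every setting run for the gene itself, -1.28 in RORaΔIEC and 0.55 in RORaf/f, which was 0.34 without RORaf/f DSS library 2.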

How the results depend on the processing

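RLE scaling changed no call among the 170 values of named members, and removing the filter added 4. DESeq2 ended 23 of these calls, effective-length offsets 22, only the groups compared 3 and the replicate block 2. Fitting only the groups compared also added 6 calls, and effective-length offsets added 1. Lower members in RORaΔIEC against RORaf/f without DSS numbered 8, against 3 with effective-length offsets, 14 with only the groups compared, 2 in DESeq2 and 1 to 10 without single libraries. Higher members with DSS numbered 8, against 5 in DESeq2 and 4 to 9 without single libraries. Falls with DSS in RORaf/f numbered 20, against 13 to 22 without single libraries, and rises in RORaΔIEC 4, against 2 to 6. Members with a higher DSS change in RORaΔIEC numbered 8, against 5 with effective-length offsets and 5 to 9 without single libraries. The difference for Sult1d1 was -0.40 with effective-length offsets (adjusted p = 0.0549, edgeR). Ugt1a7c with DSS in RORaf/f was at -0.11 and turned to 0.00 (0.00177) when the Ugt1a genes were summed. Where a call ended and no value shows why, the cause was not tested.

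The labels number replicates 1 and 2 in each group. Correlations of the replicate difference between groups ranged from -0.115 to 0.106, so the numbers were not taken as pairs. With the replicate block, lower members without DSS numbered 6 instead of 8, with Gstp3 at adjusted p = 0.0504 and Mgst1 at 0.0569 (edgeR), and no other call of a named member changed. The filter on low counts left 15 members with 1 to 59 counts over all libraries untested.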
